A study of Homo sapiens with 10 samples.

Results

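CGGBP1 and the genes next to it were examined for peaks of CTCF and of histone marks when CGGBP1 itself was depleted or overexpressed. The members are 3 protein-coding genes of human chromosome 3, CGGBP1, ZNF654 and C3orf38, of 62700 genes in the GENCODE release 44 annotation. Around them, an interval was set from 50 kb before to 50 kb after their joint span, chr3:88001944-88218729 in the hg38 build, and every peak of all 19 deposited lists in it was collected. This interval of 217 kb held 77 of the 538999 peaks of all lists, and 21 of the 137826 peaks of the 3 CTCF lists made from unmasked reads. The annotation places 2 further records in the interval: ENSG00000288654, a coding record of 78 bp at chr3:88058139-88058216, and the processed pseudogene CBX5P1. The nearest genes beyond the interval were HTR1F, 8.1 kb below its lower end, and ABCF2P1, 98.4 kb above its upper end.

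The study asked how CGGBP1 affects where CTCF binds, using ChIP-seq in HEK-293T, a human embryonic kidney cell line. Control cells (CT) carried a lentiviral non-targeting shRNA, knockdown cells (KD) carried shRNAs against 4 regions of the CGGBP1 open reading frame, and both were selected with puromycin at 10 µg/ml. Overexpressing cells (OE) carried a CGGBP1-FLAG cDNA construct. CTCF was measured in CT, KD and OE, and H3K4me3, H3K9me3 and H3K27me3 in CT and KD. A library of input chromatin was sequenced as well, without a label for the transduced cells it came from. Each target and condition had 1 library, so the conditions were compared without replicates and without a p-value. The lists give positions only, so the number of reads behind a peak is unknown. RNA or protein levels of CGGBP1 were not analysed here. The knockdown and overexpression are taken from the labels and from the paper, which shows an immunoblot of CGGBP1 in the transduced cells.

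CGGBP1 is a small nuclear protein named for its binding to unmethylated CGG triplet repeats, and it also binds interspersed repeats. CTCF is a zinc finger protein that recognises a known DNA motif through its zinc fingers, and bound CTCF anchors chromatin loops and separates neighbouring domains. H3K4me3 marks the promoters of active genes, H3K9me3 marks heterochromatin and silenced repeats, and H3K27me3 is laid down by Polycomb complexes. ZNF654 encodes a zinc finger protein, and C3orf38 is a little-characterised open reading frame.

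Starts of CGGBP1 lie head to head with those of ZNF654 and C3orf38, and of the 3 genes only CGGBP1 and ZNF654 overlap (plot of peaks over the interval). CGGBP1 lies on the minus strand at chr3:88051944-88149885 and has 7 annotated transcripts. Its MANE Select transcript, the reference transcript agreed by Ensembl and RefSeq, starts at 88059005, and its long transcripts start at 88149885 and 88149815. ZNF654 lies on the plus strand at chr3:88059255-88144660, within the span of the long CGGBP1 transcripts, and has 3 transcripts. C3orf38, also on the plus strand, lies at chr3:88149959-88168729 and has 4. The start of the CGGBP1 gene record is therefore 74 bp from that of C3orf38, whereas its MANE start is 250 bp from that of ZNF654. The interval is poor in GC (37.3%), and 19.3% of its bases lie in repeated 24-mers, that is, stretches of 24 bases that occur at least 10 times in hg38 on either strand.

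**Figure D1:**
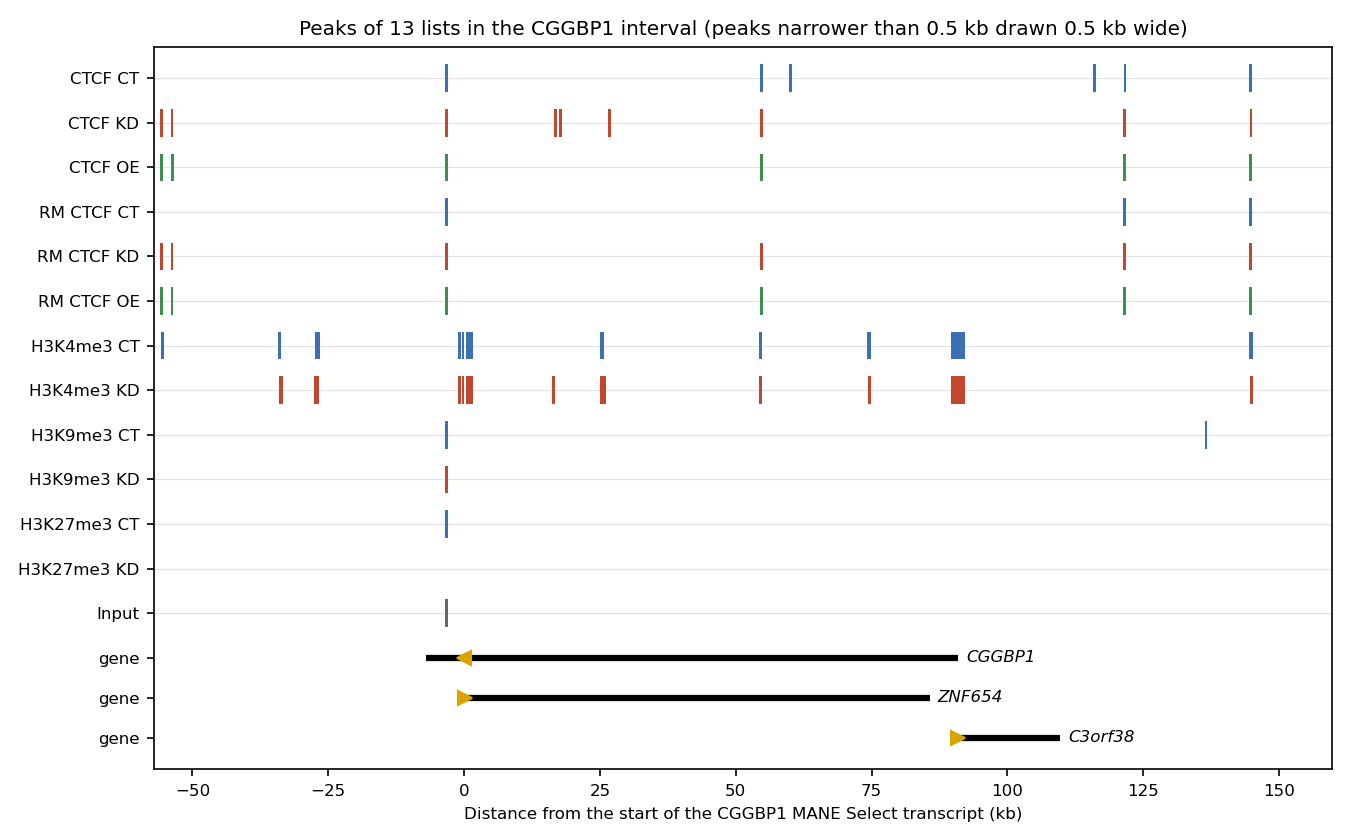
Peaks of 13 lists (rows, coloured by CT, KD, OE or input) over the interval, by distance in kb from the MANE start of CGGBP1, with gene spans as black lines and MANE starts as arrowheads that point in the direction of transcription. A peak in the CGGBP1 coding exon, near -3.27 kb, recurs in 10 of the lists, and CTCF peaks near the lower end of the interval appear in KD and OE but not in CT.

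The unmasked CTCF peaks fell into 11 separate positions, numbered P1 to P11 from the lower to the upper end of the interval. CTCF motifs were sought with a matrix learned from CTCF peaks of all 3 conditions, at p below 0.0001 per site, and 5 positions held one. These sites are printed 5′ to 3′ on the minus strand, where all 5 best matches lay, with the 15 matched bases in capitals. They are at chr3:88003339-88003353 (P1), chr3:88005253-88005267 (P2), chr3:88076875-88076889 (P5), chr3:88113759-88113773 (P7) and chr3:88180581-88180595 (P10).
P1, called in KD and OE: agattcaCCTGCAGAGGGCAGCaaatagt
P2, called in KD and OE: tatcttaCCAGTAAGGGGCAGCaaataac
P5, called in KD: tcagagtCCTCCATGTGGCAGCttaggta
P7, called in CT, KD and OE: cacttcaCCCCTAGGGGGAGCTcaaagta
P10, called in CT, KD and OE: gccttggCCACAAGATGTCACCaaatttc

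The coding sequence of CGGBP1 is unique in the genome, and the 271 bases of it common to the peaks of 10 lists, chr3:88055625-88055895 on the minus strand, are shown in the coding direction, with no capitals as no base of it is repeated.
Coding sequence, common part: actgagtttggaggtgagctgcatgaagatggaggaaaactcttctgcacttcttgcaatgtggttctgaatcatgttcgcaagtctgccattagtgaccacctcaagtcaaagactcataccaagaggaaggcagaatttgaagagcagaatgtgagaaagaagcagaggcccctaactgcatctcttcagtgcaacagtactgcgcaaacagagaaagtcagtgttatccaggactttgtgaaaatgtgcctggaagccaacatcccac

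Of the 11 CTCF positions, 4 were called in all 3 conditions, 2 in KD and OE but not CT, 3 in KD alone and 2 in CT alone (dot plot of the positions). Unmasked CTCF peaks in the interval numbered 6 for CT, 9 for KD and 6 for OE. Per Mb this is 27.7 in CT (exact Poisson 95% interval 10.2 to 60.2), 41.5 in KD (19 to 78.8) and 27.7 in OE (10.2 to 60.2). The intervals cover counting error only and overlap throughout. A difference in number between the conditions was not tested, and the counts are not independent, as 4 positions were called in all 3. By the labels, the OE list was also called at a looser p threshold (0.005) than those of CT and KD (0.0025). Over chromosomes 1 to 22, X and Y, the whole lists held 13.5, 14.9 and 14.9 peaks per Mb. The interval had more peaks per Mb than its list in each condition, and the lower bound exceeded the density of the list in KD but not in CT or OE.

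**Figure D2:**
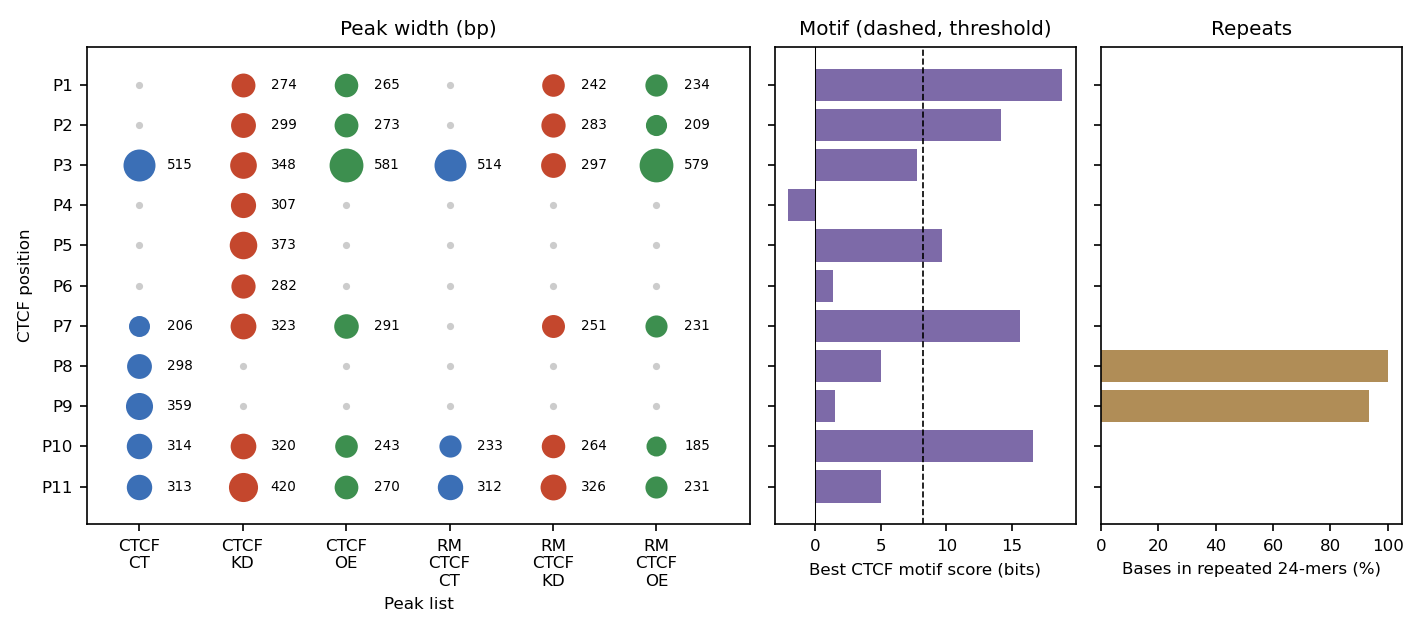
CTCF positions P1 to P11 (rows). Left, width in bp of the peak in each of the 6 CTCF lists, with a grey dot where none was called; centre, the best motif score in bits, with the threshold of 8.19 bits dashed; right, percent of bases in repeated 24-mers. The positions called in CT alone, P8 and P9, are the ones with repeated bases and have no motif.

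P1 and P2 lay 1.62 kb apart between genes, and neither was called in CT. The P1 peak was 274 bp wide in KD and 265 bp wide in OE, with widths of 242 and 234 bp on repeat-masked (RM) reads. The P2 peak was 299 bp wide in KD and 273 bp wide in OE, with widths of 283 and 209 bp on RM reads. Their motif sites scored 18.79 bits at P1, the best of all 11 positions, and 14.12 bits at P2, against a threshold of 8.19 bits. Both positions were thus called in the KD library and in the OE library, with either mapping. They are 53.8 and 51.9 kb from the nearest annotated start of CGGBP1, that of a short transcript.

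P4, P5 and P6 were called in KD alone and only on unmasked reads. All 3 lie in introns of ZNF654 and of the long CGGBP1 transcripts. P4, at chr3:88075619-88075925, was 307 bp wide and its best score was -2.01 bits, far under the threshold. P5, at chr3:88076619-88076991, was 373 bp wide and held the weakest of the 5 motifs, at 9.67 bits. P6, at chr3:88085642-88085923, was 282 bp wide with a best score of 1.36 bits and lay 397 bp from the start, at 88086320, of a ZNF654 transcript with a retained intron. In none of the 3 was a base repeated at 10 occurrences.

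P8 and P9 made up the whole of the CT-only class. P8, 298 bp wide, lies in introns of ZNF654 and CGGBP1, and P9, 359 bp wide and 55.7 kb further, lies beyond C3orf38. All of P8 (100%) and 93.6% of P9 was repeated, and their most frequent 24-mers occurred 21716 and 25730 times in hg38. Neither had a motif, with best scores of 5 and 1.55 bits, and neither was called on RM reads. Reads from one copy of such a repeat can be placed at another, and the part of this in the CT-only calls was not tested.

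P3, P7, P10 and P11 were called in CT, KD and OE. P3 is the coding exon of CGGBP1 and is described further on. P7 lies in introns of ZNF654 and CGGBP1 and had a width of 206 bp in CT, against 323 bp in KD and 291 bp in OE. On RM reads it was called in KD (251 bp) and OE (231 bp) but not in CT. P10, 23.5 kb from the nearest C3orf38 start, measured 314, 320 and 243 bp in CT, KD and OE, and was called in all 3 RM lists. Their motif sites scored 15.59 bits at P7 and 16.55 bits at P10. P11, at chr3:88203520-88204013 between genes, measured 313, 420 and 270 bp and was also called in all 3 RM lists, yet its best score was 5 bits. P7 was thus the only one of the 4 that was missing from the CT list of RM reads.

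On RM reads the CT list had 3 peaks in the interval, and the KD and OE lists 6 each. Per Mb this is 13.8 (2.85 to 40.4), 27.7 (10.2 to 60.2) and 27.7 (10.2 to 60.2), beside 8.37, 7.61 and 6.6 in the whole lists. Here the lower bound exceeded the density of the list in KD and in OE but not in CT. All 3 CT peaks overlapped peaks of KD and OE, and all 6 peaks of KD and OE overlapped each other. P1, P2 and P7 were the ones that KD and OE had and CT had not. An RM peak of the same library overlapped 3 of 6 unmasked peaks in CT (34.9% over the whole list), 6 of 9 in KD (47.6%) and 6 of 6 in OE (39.7%).

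Shared peaks were counted at an overlap of at least 1 bp. A KD peak overlapped 4 of the 6 CT peaks in the interval and an OE peak also 4, where the whole CT list gave 50.2% and 46.5%. Among the 9 KD peaks, 4 were shared with CT (45.2% in the whole list) and 6 with OE (61.5%). Among the 6 OE peaks, 4 were shared with CT (42.4%) and all 6 with KD (62.1%). With so few peaks, the exact Clopper-Pearson 95% interval reached from 22.3% to 95.7% for 4 of 6, from 13.7% to 78.8% for 4 of 9 and from 54.1% to 100% for 6 of 6, and each share of a whole list lay within its interval. The deposited exclusive lists gave the same sets: 2 CT-KD and 2 CT-OE peaks (P8 and P9), 5 KD-CT peaks (P1, P2, P4, P5 and P6), 2 OE-CT peaks (P1 and P2), 3 KD-OE peaks (P4, P5 and P6) and 0 OE-KD peaks. A count of 0 allows up to 3.69 OE-KD peaks by the exact Poisson interval.

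A CTCF motif was present in 2 of 6 CT peaks, 5 of 9 KD peaks and 4 of 6 OE peaks. Over the whole lists the shares were 46.7%, 67.5% and 57.8%. The order of the conditions differed only in that OE exceeded KD in the interval, by counts too small to separate. P3, with 7.75 bits, was the position nearest below the threshold of 8.19 bits, and P5 with 9.67 bits the nearest above it.

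**Figure D3:**
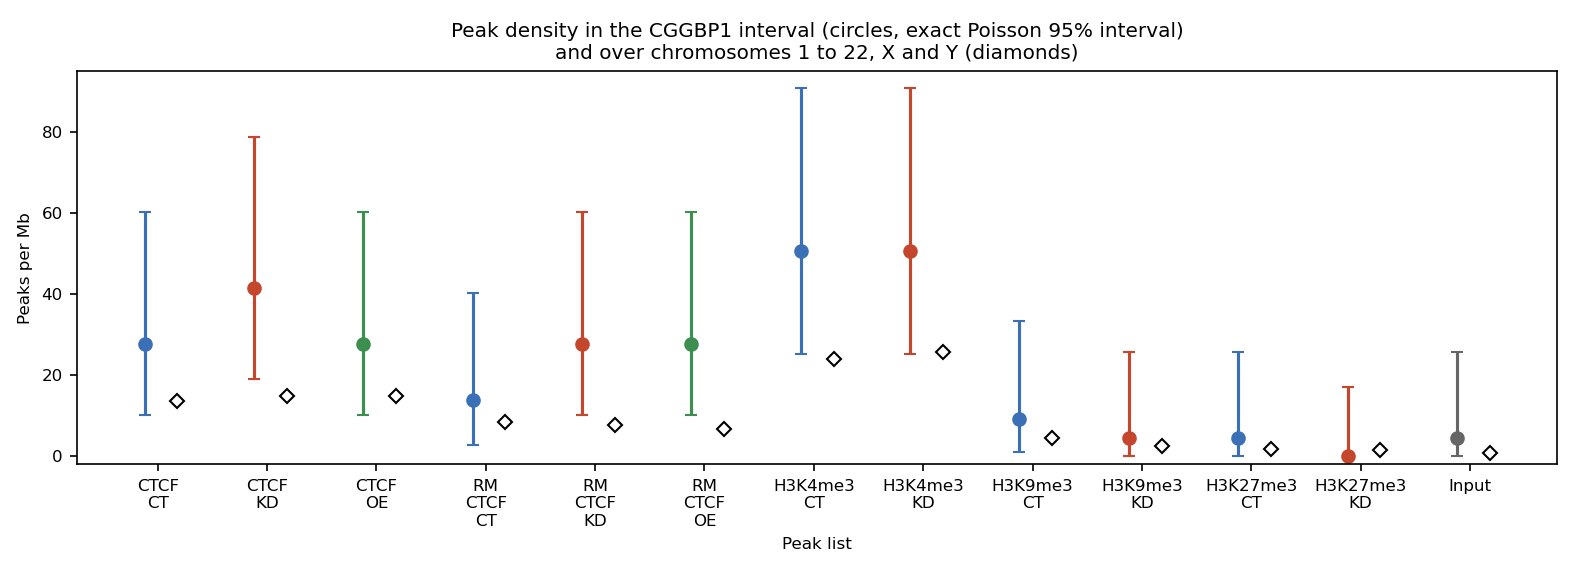
Peaks per Mb in the interval (circles, with exact Poisson 95% intervals) and over chromosomes 1 to 22, X and Y (diamonds) for 13 lists. The CTCF KD circle, at 41.5 per Mb, is the highest of the unmasked CTCF lists, and its interval overlaps those of CT and OE.

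The peak in the coding exon of CGGBP1 stood out by the lists that share it (plot of the coding sequence). The coding sequence, chr3:88055473-88055976, is 504 bp long, encodes 167 residues and lies within 1 exon, chr3:88051950-88055999. The exon holds 23 bp of the 5′ UTR before it and 3523 bp of the 3′ UTR after it. Peaks covered parts of the coding sequence in 10 lists: the 6 CTCF lists, H3K9me3 in CT and KD, H3K27me3 in CT, and the input. The RM CTCF lists come from the same libraries as the unmasked ones, so the 10 lists do not stand for 10 libraries. No H3K4me3 peak lay there in CT or KD, and none of H3K27me3 in KD.

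The input peak, chr3:88055475-88055978, was 504 bp wide, the same as the coding sequence, and each of its edges was 2 bp from an edge of the coding sequence. It covered 99.6% of the coding bases. This was the only input peak of the interval. The CTCF peak was chr3:88055503-88056017 in CT, 515 bp wide, and covered 94% of the coding bases. In KD it was chr3:88055573-88055920, 348 bp wide and wholly inside the coding sequence, of which it covered 69%. In OE it was chr3:88055436-88056016, 581 bp wide, and covered 100%. The CTCF peak was therefore narrowest in KD and widest in OE, in single libraries. The order was the same on RM reads of the same libraries, which is not a separate observation. On these reads the CT, KD and OE peaks covered 92.3%, 58.9% and 100% of the coding bases.

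The histone peaks lay wholly inside the coding sequence. H3K9me3 covered 65.7% of it in CT (331 bp) and 81.5% in KD (411 bp), and H3K27me3 covered 67.3% in CT (339 bp). At their upstream ends, the unmasked CTCF peaks of CT and OE reached 18 and 17 bp past the exon into the intron, and on RM reads 26 and 16 bp. None of these peaks extended far into the 3′ UTR, since the OE peak, which reached furthest, ended 37 bp past the coding sequence.

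**Figure D4:**
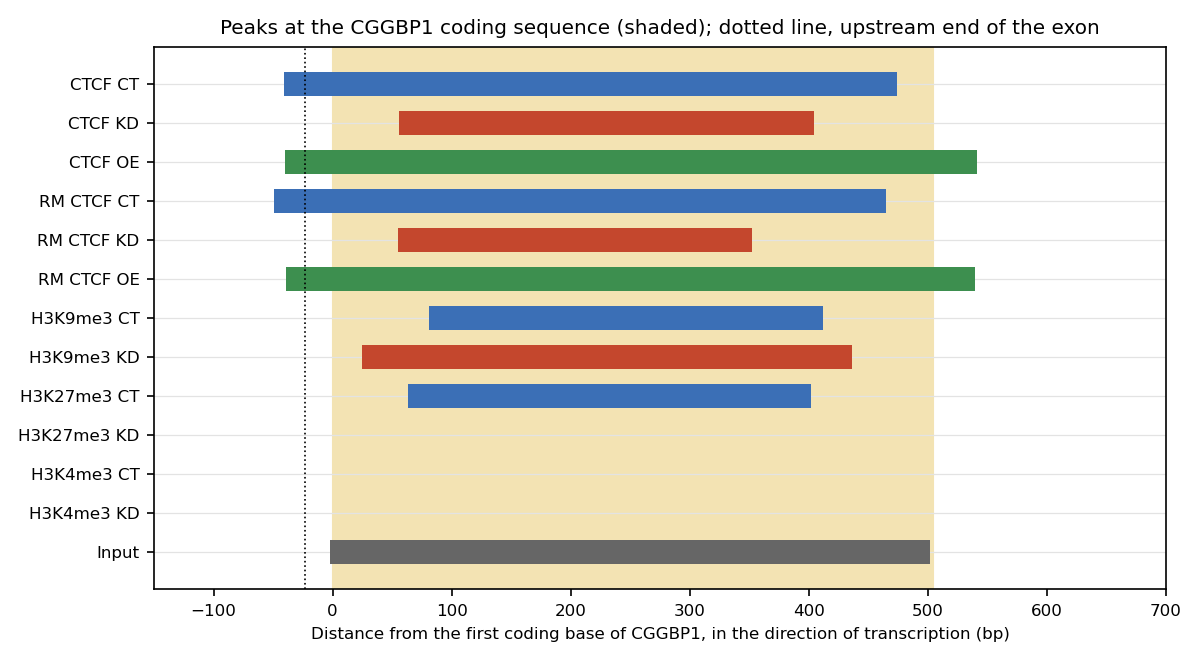
Peaks of 13 lists at the CGGBP1 coding sequence (shaded, 504 bp), by distance in bp from the first coding base in the direction of transcription; the dotted line is the upstream end of the exon. The input peak matches the shaded span to within 2 bp at either edge, and the KD peaks of CTCF are the narrowest of that target.

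No 24-mer of the coding sequence occurred elsewhere: all 481 were found once in hg38, and 0% of its bases were repeated. There was no CTCF motif. Among 20033 protein-coding genes, 15 had a coding base under an input peak (0.0749%), and CGGBP1 was the only one with at least 50% of its coding bases under input peaks (1 gene, 0.00499%). It was likewise the only gene with at least 50% of its coding bases under peaks of each of those 10 lists (0.00499%), a set of lists named after its own peaks were seen. Such a share depends on coding length, and the 504 coding bp of CGGBP1 lie within 1 exon. A single peak can therefore cover most of them, and genes of like coding length were not compared separately. By the share of coding bases under peaks, CGGBP1 ranked 1 in the input, 1 in CTCF OE, 2 in CTCF CT and 7 in CTCF KD. On RM reads it ranked 1 in OE, 2 in CT and 11 in KD, and among the histone lists 2 in H3K9me3 of CT and of KD and 13 in H3K27me3 of CT. Genes with equal shares hold the same rank. In OE, where the share was 100%, any other fully covered gene would also rank 1. Of the 2425 input peaks on chromosomes 1 to 22, X and Y, 3 had at least 50% coding bases (0.124%), and 83 of all 2676 input peaks (3.10%) overlapped a peak of each of the other 9 lists. Neither ZNF654 nor C3orf38 had a coding base under a peak of CTCF, H3K9me3, H3K27me3 or the input.

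Overlap with an input peak was otherwise rare for CTCF. In the interval it was seen for 1 of 6 CT peaks, 1 of 9 KD peaks and 1 of 6 OE peaks, in each case the one at the coding sequence, beside 4.33%, 4.48% and 5.06% of the whole lists. The same was true of 1 of 2 H3K9me3 peaks in CT (13.5%) and of the only H3K27me3 peak in CT (37.4%). The peak at the coding sequence was present in CT, KD and the input as well as in OE, and at 2 chromatin marks. OE cells carry CGGBP1 cDNA and the KD shRNAs match the open reading frame. In a list of positions, reads of a construct and reads of the chromosome cannot be told apart. The part of any construct in these peaks was not tested.

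At promoters, CTCF was not called at any gene start. No CTCF peak of any condition lay within 1 kb of the start of the CGGBP1, ZNF654 or C3orf38 gene record. The backgrounds over 20033 protein-coding promoters were 7.42%, 11.4% and 10.0% for the CT, KD and OE lists, so an absence at 3 promoters is the usual state. The same was true of the CGGBP1 MANE start. Of all annotated transcript starts of the 3 genes, that at 88086320 in ZNF654 alone had a CTCF peak within 1 kb, P6 in KD. The CTCF peak nearest to the C3orf38 start was 24.9 kb away in CT (P9), 30.4 kb in KD and 30.5 kb in OE. The one nearest to the ZNF654 start was 3.24 kb away in CT, 3.33 kb in KD and 3.24 kb in OE, the peak in the CGGBP1 coding exon.

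No H3K9me3, H3K27me3 or input peak lay within 1 kb of these starts either, at backgrounds of 0.933% for H3K9me3 and 0.334% for H3K27me3 in CT and 0.0399% for the input. Apart from the coding exon, the interval held 1 peak of these marks, an H3K9me3 peak of 162 bp in CT at chr3:88195463-88195624, between genes, with 88.9% of its bases repeated. It overlapped no H3K9me3 peak in KD, while the coding-exon peak did, so 1 of 2 CT peaks was shared (31.5% over the whole list).

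All 3 genes had H3K4me3 within 1 kb of their starts in CT and in KD, at backgrounds of 66.6% and 67.3%. A single wide peak lay over the facing starts of C3orf38 and the long CGGBP1 transcripts (plot of the promoters). It measured 2563 bp in CT, at chr3:88148607-88151169, and 2505 bp in KD, at chr3:88148644-88151148. Peaks at least this wide made up 0.394% of the CT list and 0.388% of the KD list. The annotation holds 887 pairs of protein-coding genes whose starts face away from each other within 1 kb, and 1 H3K4me3 peak lay over both starts in 49.0% of them in CT and 51.0% in KD. An H3K4me3 peak lay between 1 kb before and 1 kb after such a pair in 95.4% in CT and 95.8% in KD, and a CTCF peak, missing here, in 9.47%, 15.2% and 13.9% in CT, KD and OE.

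At the other pair of starts, CGGBP1 MANE and ZNF654, the starts themselves lay in a gap between H3K4me3 peaks. The gap was 353 bp wide in CT and 316 bp in KD. In CT the CGGBP1 start was 66 bp from the peak on its side and the ZNF654 start 38 bp from its own, and in KD the distances were 54 and 13 bp. On the CGGBP1 side lay peaks of 629 and 271 bp in CT, and of 649 and 349 bp in KD, the smaller of them next to the start. On the ZNF654 side the peak measured 1420 bp in CT and 1358 bp in KD and ran over its first coding exon. Among 892 head-to-head pairs of MANE starts, neither start was covered but a peak lay on either side within 1 kb in 10.9% in CT and 10.2% in KD.

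**Figure D5:**
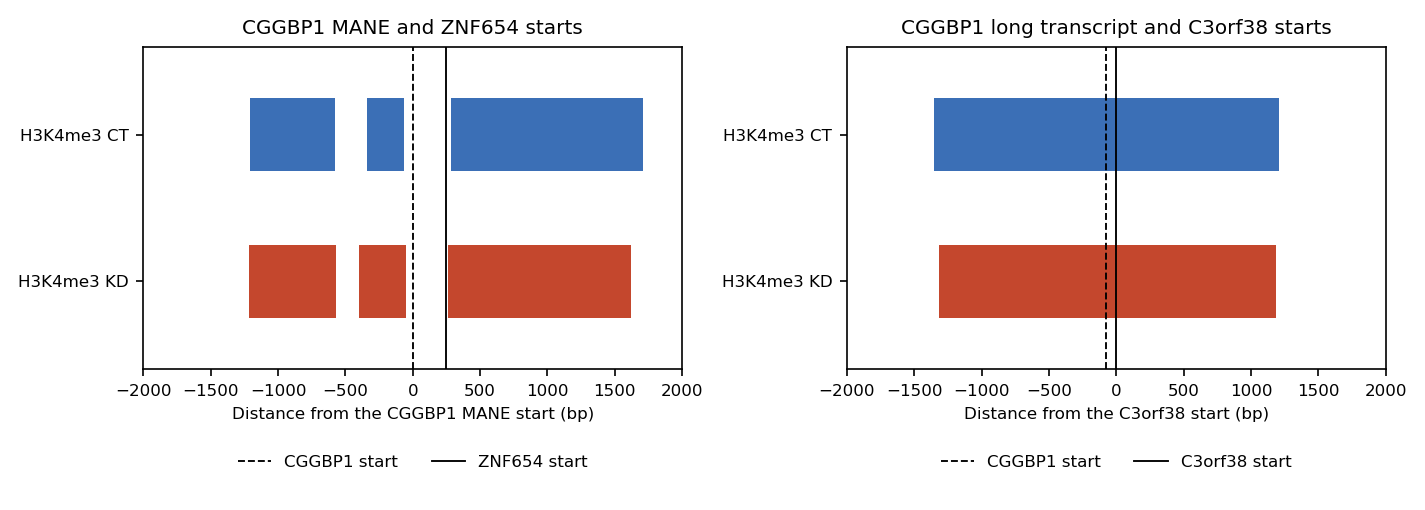
H3K4me3 peaks (bars, CT above KD) within 2 kb of the CGGBP1 MANE and ZNF654 starts (left) and of the long CGGBP1 and C3orf38 starts (right); vertical lines are the starts and the horizontal axes are in bp. The left pair lies in a gap of 353 bp in CT and 316 bp in KD, and the right pair lies under 1 peak in both.

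Within 2 kb of the start, H3K4me3 peaks covered 2563 bp in CT and 2505 bp in KD at C3orf38 and at the CGGBP1 gene record, and 2320 bp in CT and 2356 bp in KD at ZNF654. The medians over 20033 promoters were 1330 bp in CT and 1354 bp in KD, with upper quartiles of 1847 and 1854 bp. The 3 promoters thus had more covered bases than the upper quartile of all promoters in either condition. The values of C3orf38 and the CGGBP1 gene record come from the same peak and are not independent. That of ZNF654 includes the peaks on the CGGBP1 side. The background includes promoters without a peak. Among the 13831 promoters with a peak in CT and the 13997 in KD, the medians were 1664 and 1662 bp. Covered bases at other head-to-head pairs were not compared. Of the coding bases, 5.49% in ZNF654 and 13.4% in C3orf38 lay under H3K4me3 peaks, in CT and in KD alike, and 0% in CGGBP1.

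The interval held 11 H3K4me3 peaks in CT and 11 in KD, which is 50.7 per Mb in each (25.3 to 90.8), beside 24 and 25.6 in the whole lists. They covered 8596 bp in CT and 9298 bp in KD. In either direction 10 of 11 overlapped a peak of the other condition (85.9% of the CT list and 80.7% of the KD list). The ratio of widths, KD to CT, had a median of 1.11 over the 10 pairs, from 0.659 to 1.55, and 6 of 10 peaks were wider in KD. Over 60109 pairs of the whole lists 30848 were wider in KD and the median was 1, with quartiles of 0.912 and 1.12. The ratios furthest from 1 belonged to peaks away from the gene record and MANE starts: a peak between genes at chr3:88024842-88025356 measured 515 bp in CT and 796 bp in KD (1.55), one in introns at chr3:88084087-88084747 measured 661 and 1009 bp (1.53) and ended 1573 bp in CT and 1218 bp in KD before the ZNF654 transcript start at 88086320, and another in introns at chr3:88133182-88133799 measured 618 and 407 bp (0.659). At the promoters the ratios were 0.977 for the C3orf38 peak, 0.956 for the ZNF654 peak, and 1.03 and 1.29 for both on the CGGBP1 side.

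CTCF and H3K4me3 peaks met at few of the positions. In CT 2 of 6 CTCF peaks overlapped H3K4me3 (26.6% of the whole list), and in KD 3 of 9 did (33.1%). P7 and P11 did so in both conditions. At P7 the overlap was 4 bp in CT and 131 bp in KD, and at P11 313 bp in CT and 390 bp in KD. P4, called in KD alone, overlapped by 59 bp the only H3K4me3 peak of the interval found in KD alone, chr3:88075255-88075677. P1, not called in CT, lay on the only H3K4me3 peak found in CT alone, chr3:88003377-88003575, which the KD CTCF peak overlapped by 82 bp and the OE peak by 108 bp. A CTCF peak called in KD and not in CT thus lay beside H3K4me3 called in KD alone at P4, and beside H3K4me3 called in CT alone at P1. Over the whole lists 21.4% of KD-CT peaks overlapped H3K4me3 in KD, 3.44% overlapped H3K4me3 found in KD alone, and 6.91% of H3K4me3 peaks found in CT alone overlapped a KD-CT peak.

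The limit of the interval left out 1 site by a short distance. CTCF peaks of CT, KD and OE began 573, 613 and 490 bp above its upper end, with H3K4me3 of CT and KD at 445 and 602 bp. Below the lower end, the next CTCF peak was 9551 bp away, in KD alone.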

How the data were processed

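ChIP-seq peak lists of CTCF (CT, KD, OE), H3K4me3, H3K9me3, H3K27me3 (CT, KD) and input from HEK-293T cells were used, with 1 library each. Per the submitters' processing notes and the methods, the authors mapped quality-filtered reads with Bowtie2 to unmasked or repeat-masked hg38, called peaks per library with MACS2 and made exclusive lists with bedtools. Labels give p thresholds of 0.0025 (CTCF, CT and KD), 0.005 (CTCF, OE) and 0.001 (other lists), whereas the methods give 0.005 for unmasked reads. The antibodies that the methods name for H3K9me3 and H3K27me3 are exchanged in the labels, and lists were used by title. The deposited values are positions in bp, with no score or coverage, and starts were read as counted from 0. Widths would be 1 bp larger if they are counted from 1.

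Overlaps, coding coverage, repeated 24-mers and motif scores were computed in Python 3.11.15 with numpy 2.4.6, pysam 0.24.0 and scipy 1.17.1, on hg38 (455 sequences) and GENCODE 44, after tests on simulated data. The CTCF matrix of 15 columns was learned from 12859 repeat-masked CT peaks shared with KD and OE. Motif shares are thus not independent of these libraries. Genes named are those annotated in the interval. The members and lists were chosen with earlier results of these data known. Promoter sequences of the 3 genes were not used here, and the sequences of the peaks called in CT alone are not reported here. Intervals cover counting error only.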

Additional observations from a re-analysis of the deposited data

How the results depend on the processing

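Over 42 results and 147 alternative settings, 130 values stayed within 1.5 times the reported count or within its interval, and 17 moved further. The results are single counts or percents, so a change of direction was not assessed. With a flank of 25 kb, which leaves out P1, P2 and P11, the interval held 3 CTCF peaks in OE, and 3 in KD and 3 in OE on repeat-masked reads, and 1 H3K9me3 peak in CT. With 100 kb, H3K9me3 in KD had 2 peaks. Kept to the 20000 widest peaks of a list, CTCF in OE had 2 peaks, and H3K4me3 had 2 in CT and 3 in KD. Without peaks that overlap an input peak, H3K9me3 kept 1 peak in CT and 0 in KD, and H3K27me3 kept 0 in CT. When a consensus allowing 1 mismatch replaced the matrix, 0 CT, 2 KD and 2 OE peaks of CTCF had a motif. With any annotated transcript start in place of the gene record, 1 member had a CTCF peak in KD. Within 1 kb of the ZNF654 start, H3K4me3 peaks covered 1408 bp in CT and 1518 bp in KD. The restriction to the widest peaks was not run for H3K9me3, H3K27me3 and input lists, which hold fewer. The pairing by MANE starts was chosen after seeing the data. No paired analysis was possible because the conditions have 1 library each.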
